A study of Homo sapiens with 9 samples.

Results

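The ERBB receptors, their EGF-family ligands and the receptor inhibitor ERRFI1 were described in uCaco-2 cells, undifferentiated and proliferating cells of the human colon adenocarcinoma line Caco-2. The members were taken by symbol from the deposited table of read counts, and all 9 were found among its 60591 symbols: EGFR, ERBB2, ERBB3, ERRFI1, AREG, EREG, TGFA, HBEGF and BTC. Control cells received fresh medium, CoCl2 cells received 300 μM cobalt (II) chloride, and OD cells received 5 μM of an oxyquinoline derivative, for 24 h and with 0.5% DMSO in every condition. Each condition had 3 biological replicates, all from this 1 cell line. CoCl2 and OD are both used to stabilize hypoxia-inducible factor (HIF) without lowering oxygen, CoCl2 by displacing the iron of prolyl hydroxylases and OD by blocking their active centre.

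EGF-family ligands are made as membrane-anchored precursors, and proteases such as ADAM17 release the active growth factor from the cell surface. The ligand brings ERBB receptors together in pairs, the receptors phosphorylate each other, and the signal runs through RAS and ERK as well as through PI3K and AKT. EGFR binds all 5 ligands of the list, ERBB2 has no known ligand of its own and acts as the preferred partner of the others, and ERBB3 has little kinase activity and passes the signal to PI3K. ERRFI1, also named MIG6, is made in response to receptor signalling and binds and inhibits the EGFR kinase. In the intestinal epithelium this system is known for its role in proliferation, restitution and repair.

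Total counts per library were between 15998136 and 24209427, and levels are given in CPM, reads of a gene relative to a library total that was corrected for composition with edgeR's TMM factors. These factors were 0.770 to 0.795 in the CoCl2 libraries and 1.11 to 1.15 in the other libraries, and without them the median difference of all genes between CoCl2 and control cells moved from -0.049 to -0.55 on the log2 scale. The summed level of 9 intestinal epithelial markers was 9995 to 10459 CPM in control cells, 11747 to 12608 after CoCl2 and 9457 to 9979 after OD. Most of this sum came from the keratins KRT8 and KRT18. Their means were 4983 and 2867 CPM in control cells, 6339 and 3442 after CoCl2, and 4249 and 2728 after OD. Of the 9 markers, the intestinal transcription factor CDX1 had no read in any library. Those that mark differentiated enterocytes did not follow the sum after CoCl2: VIL1, which encodes the microvillus protein villin, fell from a mean of 613 to 112 CPM (log2 fold change -2.45, edgeR adjusted p = 1.24e-51), and KRT20, a keratin, from 4.49 to 1.74 CPM (-1.44, edgeR adjusted p = 2.70e-09). LGALS4, with 33 reads or fewer in every library, was called higher after CoCl2 (1.66, edgeR adjusted p = 0.0360), although its libraries overlapped those of control cells. The summed leukocyte markers did not exceed 5.49 CPM in any library, the endothelial markers 2.93 CPM and the fibroblast markers 32.5 CPM. NDRG1 and VEGFA, known targets of HIF, had log2 fold changes of 3.69 and 1.22 after CoCl2 and of 3.22 and 1.41 after OD. Of the other HIF targets checked, ANKRD37 had 2.51 after CoCl2 and 3.03 after OD, and EGLN3 had 1.27 and 0.35. CA9, with 16 reads or fewer in every library, was not tested. In bulk RNA, fewer cells that express a gene and less of its RNA per cell cannot be told apart.

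With CoCl2, the transcripts of EGFR, ERBB2 and, with few reads, TGFA fell, and those of HBEGF and ERRFI1 rose about as much as each other. With OD, HBEGF and ERRFI1 also rose, to a smaller extent, while the 3 receptors were higher than in control cells. AREG and EREG were lower with both treatments, although by less than the fold change required for a call. A gene was called at an adjusted p under 0.05 (edgeR's quasi-likelihood test, Benjamini-Hochberg adjustment over all 15944 tested genes) together with a log2 fold change above 1 in size. Of the 9 members 8 passed the expression filter, and BTC did not.

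With CoCl2, 2 of the 8 tested members were called higher and 3 lower, where 19.9% of all tested genes were called higher and 23.4% lower. The 3 include TGFA, which was over the cutoff of the expression filter in 0 CoCl2 libraries. With OD, 2 were called higher and 0 lower, against 9.09% and 4.16% of all genes. A further 6 members had an adjusted p under 0.05 after OD without reaching the fold change, of which 4 were higher and 2 lower. By the adjusted p alone, 6 members were thus higher and 2 lower after OD, where 32.3% of all tested genes were higher and 33.3% lower. In the direct comparison, 2 members were called higher after CoCl2 than after OD and 4 lower, against 17.5% and 23.8% of all genes. The 4 again include TGFA. Libraries of the compared conditions were separate, with no overlap, for 8 of 8 tested members after CoCl2, for 8 of 8 after OD and for 7 of 8 between the treatments. Over all tested genes this held for 83.4%, 68.0% and 83.7%, so that the absence of overlap was common in this experiment. The median log2 fold change of the tested members was -0.70 after CoCl2 and 0.65 after OD, and that of all tested genes was -0.049 and -0.010. Both comparisons share the control libraries. With the library total as the only scaling, 2 members were called higher and 6 lower after CoCl2, where 11.5% of all genes were called higher and 36.6% lower.

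**Figure D1:**
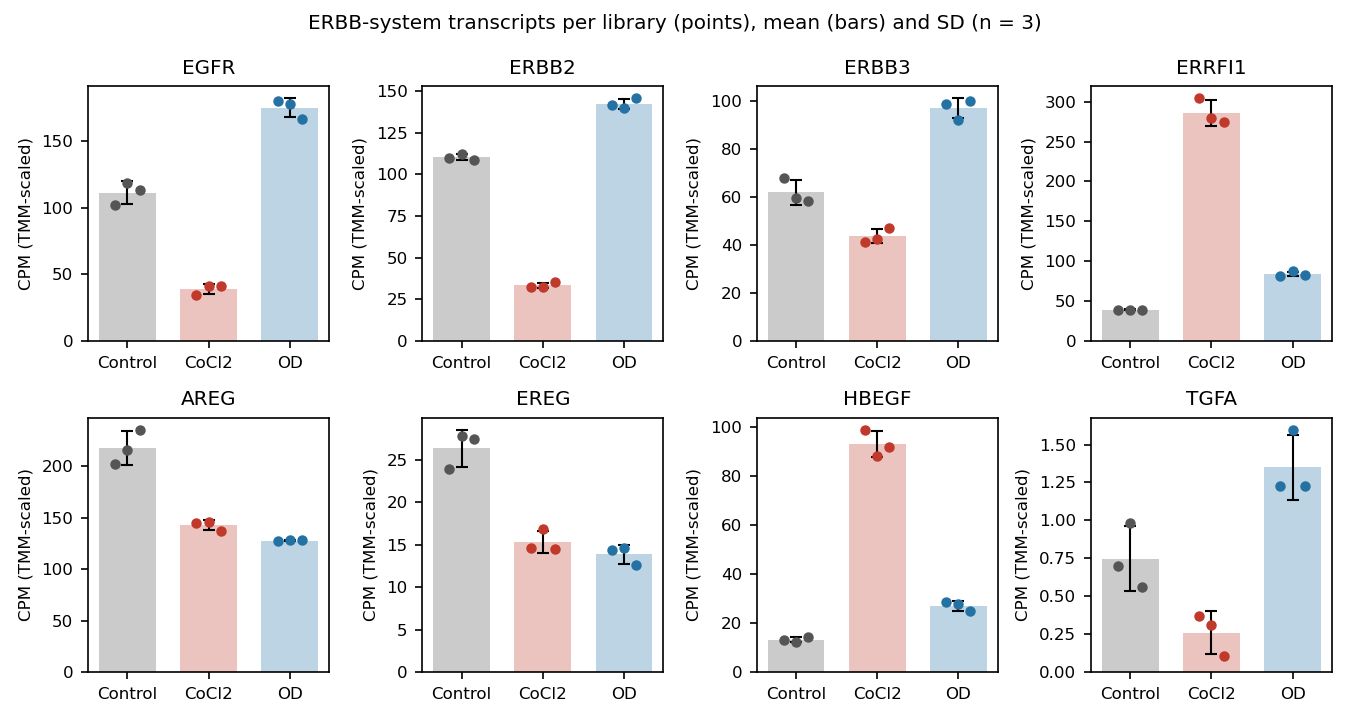
Level of the 8 tested members in CPM (vertical axis, linear from 0) in each of the 9 libraries, with points for libraries, bars for the mean and error bars for the SD of 3 libraries per condition. The receptors are lowest after CoCl2 and highest after OD, ERRFI1 and HBEGF are highest after CoCl2, and AREG and EREG are highest in control cells.

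EGFR, on chromosome 7 of GRCh38 between 55019017 and 55211628 (plus strand), encodes the receptor that gives the family its name. Its level was 102, 119 and 113 CPM in the control libraries, 34.6, 41.1 and 41.2 CPM after CoCl2, and 181, 178 and 167 CPM after OD. Every CoCl2 library lay below every control library, and every OD library above. The log2 fold change was -1.52 after CoCl2 (standard error 0.059, edgeR adjusted p = 3.15e-29), which is 2.86-fold lower. With OD it was 0.65 (standard error 0.050, edgeR adjusted p = 1.84e-16), short of the fold change for a call. The direct comparison gave a log2 difference of -2.17 between CoCl2 and OD (edgeR adjusted p = 1.37e-36).

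ERBB2 is encoded on chromosome 17 between 39687914 and 39730426 (plus strand). It had 110, 112 and 109 CPM in control cells, 32.6, 32.7 and 35.2 CPM after CoCl2, and 142, 139.6 and 146 CPM after OD. The 3 conditions formed separate and narrow groups. ERBB2 had the largest fall of the receptors after CoCl2, a log2 fold change of -1.72 (standard error 0.053, edgeR adjusted p = 1.14e-38), and the smallest difference of the receptors after OD, 0.37 (standard error 0.045, edgeR adjusted p = 1.11e-10). Exons of MIEN1 and PGAP3 on the other strand overlap 6.93% of the exonic bases of ERBB2, and the strand setting of the counting is not given in the sources used here.

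ERBB3 is encoded on chromosome 12 between 56076799 and 56103505 (plus strand). Its level was 67.8, 59.6 and 58.6 CPM in control cells, 41.4, 42.7 and 47.1 CPM after CoCl2, and 98.9, 92.3 and 100.3 CPM after OD. It followed the order of the other receptors, with a smaller difference from control cells after CoCl2. Against control cells, the log2 fold change was -0.50 after CoCl2 (standard error 0.059, edgeR adjusted p = 2.20e-11) and 0.65 after OD (standard error 0.054, edgeR adjusted p = 8.29e-17), and neither was called. Between the treatments ERBB3 was called lower after CoCl2, by a log2 difference of -1.15 (edgeR adjusted p = 1.01e-27). With the library total as the only scaling the log2 fold change after CoCl2 was -1.0035, just past the threshold.

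The unequal change of the receptors can also be read within each library, where no scaling between libraries enters. The log2 ratio of ERBB2 to ERBB3 reads was 0.83 ± 0.12 (SD, n = 3) in control cells, -0.38 ± 0.037 after CoCl2 and 0.55 ± 0.041 after OD. The ratio of EGFR to ERBB3 was 0.85 ± 0.22 in control cells, -0.17 ± 0.10 after CoCl2 and 0.85 ± 0.11 after OD. ERBB3 reads thus exceeded those of either other receptor in all CoCl2 libraries and in no other library. The ratio of EGFR to ERBB2 moved less, from 0.012 ± 0.11 in control cells to 0.21 ± 0.12 after CoCl2 and 0.30 ± 0.089 after OD. The control and CoCl2 libraries did not overlap in these ratios, and the exact two-sided permutation test gave p = 0.1, the smallest value that 3 libraries against 3 allow. For EGFR to ERBB2 they nearly met, with control libraries up to 0.0840 and CoCl2 libraries from 0.0855.

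Per kilobase of exon, the receptors summed to 23.0 ± 0.38 CPM per kb in control cells, 9.42 ± 0.57 after CoCl2 and 33.1 ± 0.46 after OD (SD, n = 3). ERBB2 made up 46.5 ± 0.13% of this sum in control cells, 34.5 ± 1.03% after CoCl2 and 41.7 ± 0.83% after OD. ERBB3 made up 23.1 ± 1.99%, 39.6 ± 0.70% and 25.1 ± 0.82%, so that it became the largest part after CoCl2. These shares rest on all annotated exons of each gene, which are longer than any single transcript.

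**Figure D2:**
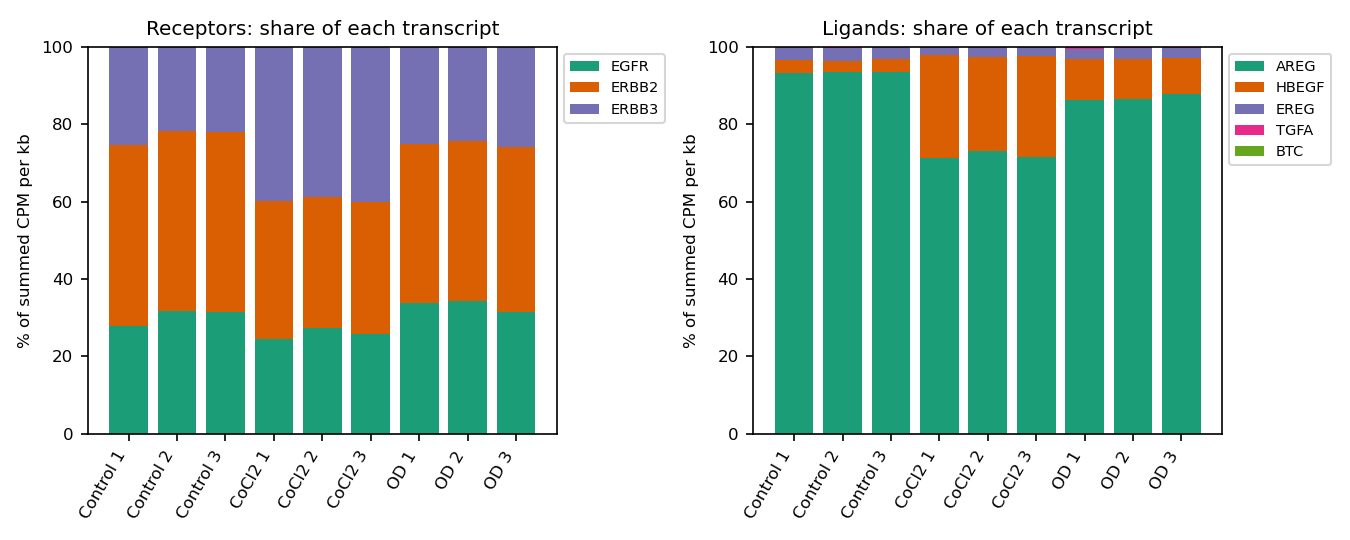
Share of each receptor (left) and each ligand (right) in the summed CPM per kb of its class, in percent (vertical axes), with 1 stacked bar per library. The ERBB3 part is widest in the 3 CoCl2 libraries, and the HBEGF part grows from 2.94% to 3.32% in control libraries to 9.38% to 10.6% after OD and 24.3% to 26.7% after CoCl2.

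ERRFI1, the feedback inhibitor, is encoded on chromosome 1 between 8004404 and 8026309 (minus strand). It had 38.6, 39.4 and 39.1 CPM in control cells, 304, 279.6 and 274 CPM after CoCl2, and 81.9, 87.4 and 82.3 CPM after OD. The control libraries differed from each other by less than 1 CPM, and both treatments lay far above them. In the fit, its log2 fold change was 2.87 after CoCl2 (standard error 0.050, edgeR adjusted p = 2.14e-52), 7.33-fold higher and larger in size than that of 95.2% of all tested genes. With OD it was 1.10 (standard error 0.052, edgeR adjusted p = 3.71e-28), or 2.15-fold. The log2 ratio of ERRFI1 to EGFR reads was -1.51 ± 0.099 (SD, n = 3) in control cells, 2.88 ± 0.22 after CoCl2 and -1.06 ± 0.068 after OD. ERRFI1 reads were therefore fewer than those of EGFR in control and OD cells and more numerous after CoCl2. These reads were not corrected for exon length. Per kilobase of exon, ERRFI1 exceeded EGFR in every condition. The means were 9.34 against 6.99 CPM per kb in control cells, 20.1 against 10.99 after OD and 68.5 against 2.44 after CoCl2.

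HBEGF, the heparin-binding ligand of EGFR, is encoded on chromosome 5 between 140332843 and 140346603 (minus strand). Its level was 13.1, 12.4 and 14.4 CPM in control cells, 98.9, 88.2 and 92.0 CPM after CoCl2, and 28.6, 27.9 and 24.9 CPM after OD. The groups were far apart, in the same order as those of ERRFI1. This was a log2 fold change of 2.81 after CoCl2 (standard error 0.068, edgeR adjusted p = 1.07e-44) and 1.04 after OD (standard error 0.076, edgeR adjusted p = 3.40e-19). The call after OD was close to the threshold, and without control replicate 2 the log2 fold change was 0.98. In the direct comparison HBEGF was higher after CoCl2 than after OD by 1.77 on the log2 scale (edgeR adjusted p = 9.09e-37), and ERRFI1 by 1.77 (edgeR adjusted p = 5.22e-43).

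HBEGF and ERRFI1 lie on different chromosomes, yet each was among the 3 genes most like the other. Likeness was the Euclidean distance between log2 CPM profiles over the 9 libraries, centred on the control mean, among the 13429 genes that averaged 1 CPM or more. The distance between HBEGF and ERRFI1 was 0.28. CLDN4, a tight junction claudin, was closest to both, at 0.17 from HBEGF and 0.23 from ERRFI1, with log2 fold changes of 2.86 after CoCl2 and 1.01 after OD. GOLGB1, which encodes the Golgi protein giantin, was at 0.32 and 0.24, with log2 fold changes of 2.80 and 1.04.

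The promoter windows of HBEGF and ERRFI1 are shown because these genes rose together with both treatments. They are the RefSeq sequences of GRCh38.p14 from 250 bases before the start site to 50 after it, at chr5:140346554-140346853 and chr1:8026260-8026559, both on the minus strand. Capitals mark matches, on either strand, to the hypoxia response cores ACGTG and GCGTG, the cAMP response motif TGACGTCA and its first bases TGACG, which it contains, the AP-1 motif TGANTCA and the antioxidant response motif TGACNNNGC.
HBEGF: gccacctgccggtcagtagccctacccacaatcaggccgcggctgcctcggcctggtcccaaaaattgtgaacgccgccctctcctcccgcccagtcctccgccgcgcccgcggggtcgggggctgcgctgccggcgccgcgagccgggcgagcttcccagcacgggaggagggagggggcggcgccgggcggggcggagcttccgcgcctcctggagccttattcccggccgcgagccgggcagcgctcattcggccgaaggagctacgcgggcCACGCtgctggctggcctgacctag
ERRFI1: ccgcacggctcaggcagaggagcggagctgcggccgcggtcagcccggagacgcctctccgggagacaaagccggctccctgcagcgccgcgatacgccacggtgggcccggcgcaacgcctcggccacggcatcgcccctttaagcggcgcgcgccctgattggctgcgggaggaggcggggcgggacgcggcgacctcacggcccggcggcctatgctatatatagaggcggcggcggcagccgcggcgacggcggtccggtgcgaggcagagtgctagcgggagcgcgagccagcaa
HBEGF held 1 match, to GCGTG on the opposite strand at position 26 after the start, and ERRFI1 held none of these letters in the window. Over 35116 promoter windows of this length, 21.4% held ACGTG, 36.5% GCGTG, 24.6% TGACG, 1.85% TGACGTCA, 7.71% TGANTCA and 13.3% TGACNNNGC, so the match in HBEGF is a common one. A match describes letters and not a bound site. RefSeq windows were matched for 8 of the 9 members, all but ERBB3.

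AREG encodes amphiregulin and, per kilobase of exon, was the most abundant ligand in every condition. It had 203, 216 and 236 CPM in control cells, 145, 146 and 137 CPM after CoCl2, and 128, 128 and 128 CPM after OD. All treated libraries lay below all control libraries. The fitted log2 change was -0.61 after CoCl2 (standard error 0.045, edgeR adjusted p = 2.20e-19) and -0.77 after OD (standard error 0.045, edgeR adjusted p = 1.52e-23), and neither was called. Between the treatments the log2 difference was 0.16 (edgeR adjusted p = 0.00165), with a sign that turned to -0.39 when the library total was the only scaling.

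EREG encodes epiregulin, and its level followed that of AREG at a lower abundance. It had 23.9, 27.8 and 27.5 CPM in control cells, 14.7, 16.9 and 14.6 CPM after CoCl2, and 14.4, 14.7 and 12.6 CPM after OD. The CoCl2 and OD libraries overlapped each other, and all of them lay below the control libraries. Relative to control cells, the log2 difference was -0.79 after CoCl2 (standard error 0.081, edgeR adjusted p = 1.35e-13) and -0.92 after OD (standard error 0.078, edgeR adjusted p = 2.74e-16). The log2 difference between the treatments was 0.13 with a 95% interval from -0.087 to 0.34 (edgeR adjusted p = 0.169), and its sign turned to -0.42 with the library total alone and to -0.0031 with upper-quartile factors. The log2 ratio of AREG to EREG reads was 3.05 ± 0.080 (SD, n = 3) in control cells, 3.22 ± 0.097 after CoCl2 and 3.20 ± 0.12 after OD. The control libraries did not overlap those of either treatment in this ratio (exact two-sided permutation p = 0.1 each, the smallest possible), but the gap was narrow. The highest control library was at 3.10, and the lowest treated libraries were at 3.11 (CoCl2) and 3.13 (OD). A larger fall of EREG than of AREG was therefore not established.

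AREG and EREG are neighbours on the plus strand of chromosome 4, EREG from 74365145 to 74388749 and AREG from 74445136 to 74455005, with 56.4 kb between them. EPGN lies before EREG and BTC after AREG, and the 4 ligand genes span 486 kb. The promoter windows of AREG, at chr4:74444886-74445185, and EREG, at chr4:74364895-74365194, both on the plus strand, are shown because both neighbours were lower after each treatment, with capitals for the same motifs.
AREG: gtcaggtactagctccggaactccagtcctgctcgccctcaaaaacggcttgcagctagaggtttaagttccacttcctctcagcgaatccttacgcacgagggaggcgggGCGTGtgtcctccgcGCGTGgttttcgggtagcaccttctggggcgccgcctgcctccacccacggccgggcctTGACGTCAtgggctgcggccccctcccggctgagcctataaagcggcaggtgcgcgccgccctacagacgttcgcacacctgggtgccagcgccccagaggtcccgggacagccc
EREG: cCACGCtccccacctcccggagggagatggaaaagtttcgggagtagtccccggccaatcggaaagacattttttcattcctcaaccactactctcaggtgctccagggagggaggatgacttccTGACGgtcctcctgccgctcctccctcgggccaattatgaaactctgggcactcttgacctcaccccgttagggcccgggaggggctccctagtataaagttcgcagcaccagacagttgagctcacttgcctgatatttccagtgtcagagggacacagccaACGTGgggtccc
AREG held the full cAMP response motif TGACGTCA, which reads alike on both strands, from position -65, a match found in 1.85% of all windows. It also held GCGTG at positions -139 and -124. EREG held the shorter TGACG at position -125, ACGTG at position 39 after the start and GCGTG on the opposite strand at position -249. The windows thus share TGACG and GCGTG, which are also frequent in all promoters.

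TGFA, on chromosome 2 between 70447284 and 70554193 (minus strand), encodes transforming growth factor alpha and was near the lower limit of detection. Its reads numbered 13, 20 and 10 in the control libraries, 6, 4 and 2 after CoCl2, and 27, 36 and 23 after OD. TGFA was over the cutoff of the expression filter in 0 CoCl2 libraries and in all control and OD libraries, so it was tested because of the conditions in which it was higher. The groups did not overlap, and the order matched that of the receptors rather than that of the other ligands. On the log2 scale, the change was -1.57 after CoCl2 (standard error 0.45, edgeR adjusted p = 0.00118) and 0.84 after OD (standard error 0.29, edgeR adjusted p = 0.00865). Between the treatments it was -2.41 (standard error 0.39, edgeR adjusted p = 9.87e-08). The call after CoCl2 was lost with DESeq2 on the 6 libraries (adjusted p = 0.0521), and without control replicate 2 the log2 fold change after OD was 1.09 and passed the threshold.

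BTC, on chromosome 4 between 74744759 and 74794523 (minus strand), encodes betacellulin and had 1 to 2 reads in each control and each CoCl2 library and 6, 1 and 1 reads after OD. These counts did not allow a test, and a difference between conditions was not detectable at this depth.

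**Figure D3:**
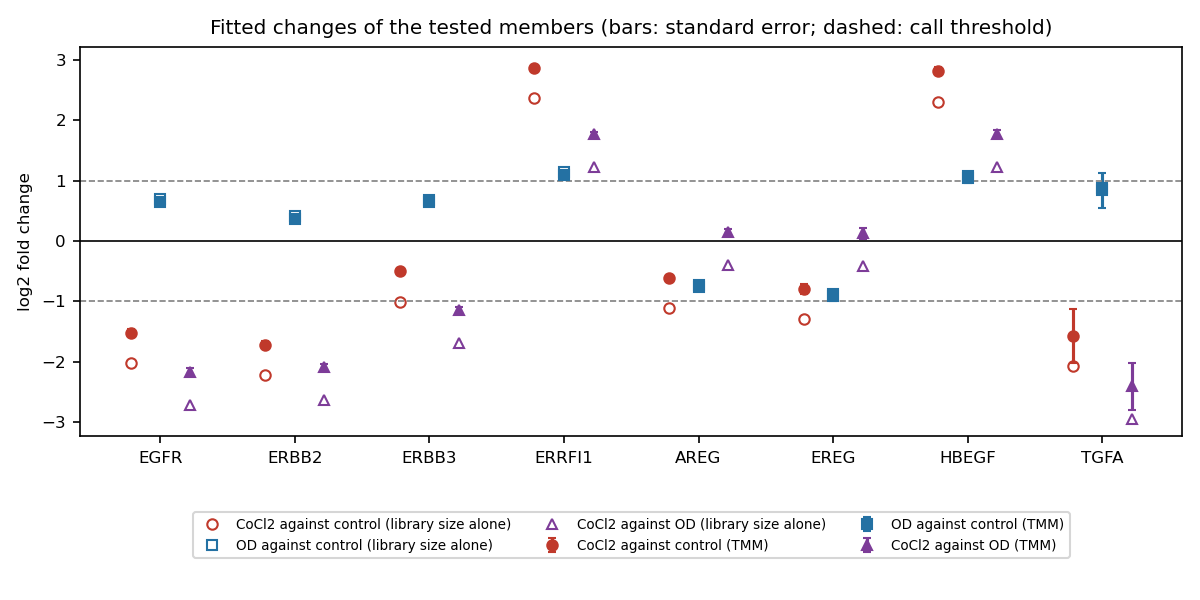
Log2 fold change (vertical axis) of the 8 tested members in the 3 comparisons, with filled symbols and standard errors for TMM scaling and open symbols for the library total as the only scaling. Open symbols lie lower in both comparisons that include CoCl2, and a sign turns only for AREG and EREG between the treatments.

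The composition of the ligand transcripts differed between the conditions. Per kilobase of exon, AREG made up 93.5 ± 0.13% of the 5 ligands in control cells, 86.8 ± 0.88% after OD and 72.0 ± 1.08% after CoCl2 (SD, n = 3). The HBEGF share was 3.13 ± 0.19%, 10.1 ± 0.65% and 25.7 ± 1.28% in the same order. The log2 ratio of HBEGF to AREG reads was -4.04 ± 0.088 in control cells, -2.24 ± 0.11 after OD and -0.62 ± 0.094 after CoCl2. The libraries of the 3 conditions were separate in this ratio (exact two-sided permutation p = 0.1 for each comparison, the smallest possible). The ligand sum was 142 ± 10.6 CPM per kb in control cells, 121 ± 3.58 after CoCl2 and 89.8 ± 0.82 after OD, the lowest despite the rise of HBEGF.

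In control cells the order of the members by CPM per kb was AREG at 133 ± 10.1, ERBB2 at 10.7 ± 0.16, ERRFI1 at 9.34 ± 0.089, EGFR at 6.99 ± 0.54, ERBB3 at 5.29 ± 0.43, EREG at 4.62 ± 0.38, HBEGF at 4.44 ± 0.34, TGFA at 0.152 ± 0.043 and BTC at 0.026 ± 0.0094 (SD, n = 3). The libraries of EREG and HBEGF overlapped, and those of all other neighbours in this order did not. With CoCl2 the order began with AREG at 87.0 ± 2.88, ERRFI1 at 68.5 ± 3.84 and HBEGF at 31.1 ± 1.81, followed by ERBB3 at 3.74 ± 0.25, ERBB2 at 3.24 ± 0.14, EREG at 2.69 ± 0.23 and EGFR at 2.44 ± 0.24. EREG and EGFR overlapped there, as did TGFA and BTC. With OD it began with AREG at 77.9 ± 0.24, ERRFI1 at 20.1 ± 0.73, ERBB2 at 13.8 ± 0.30 and EGFR at 10.99 ± 0.45, and HBEGF at 9.08 ± 0.66 and ERBB3 at 8.30 ± 0.36 overlapped.

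The other ligands and the receptor of the family that are not on the list were scarce. ERBB4, the remaining receptor, had 0 reads in the control libraries and at most 2 reads in any library. EPGN, NRG2 and NRG3 also failed the filter, with at most 5, 6 and 1 reads. EGF, the ligand that founded the family, had 10, 8 and 4 reads in control cells, 25, 26 and 42 after CoCl2 and 9, 16 and 7 after OD. It was called higher after CoCl2, at a log2 fold change of 2.30 (standard error 0.32, edgeR adjusted p = 3.27e-09), and had 0.38 after OD (edgeR adjusted p = 0.433). NRG4, a neuregulin that binds ERBB4, had 4, 3 and 1 reads in control cells, 24, 13 and 20 after CoCl2 and 14, 10 and 4 after OD. It was called higher after CoCl2, at 3.02 (standard error 0.46, edgeR adjusted p = 2.38e-08), and after OD, at 1.60 (standard error 0.55, edgeR adjusted p = 0.00849), although its OD and control libraries overlapped. Exons of FBXO22 on the other strand overlap 38.2% of the exonic bases of NRG4. EGF and NRG4 passed the filter through the CoCl2 libraries, so their number among the called genes is no support for a general rise of ligands. NRG1, a neuregulin that binds ERBB3, had 20, 21 and 23 reads in control cells and a log2 fold change of 0.066 after CoCl2 (edgeR adjusted p = 0.831). After OD it had 15, 15 and 14 reads, below every control library, and a log2 fold change of -0.69 (edgeR adjusted p = 0.0348).

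**Figure D4:**
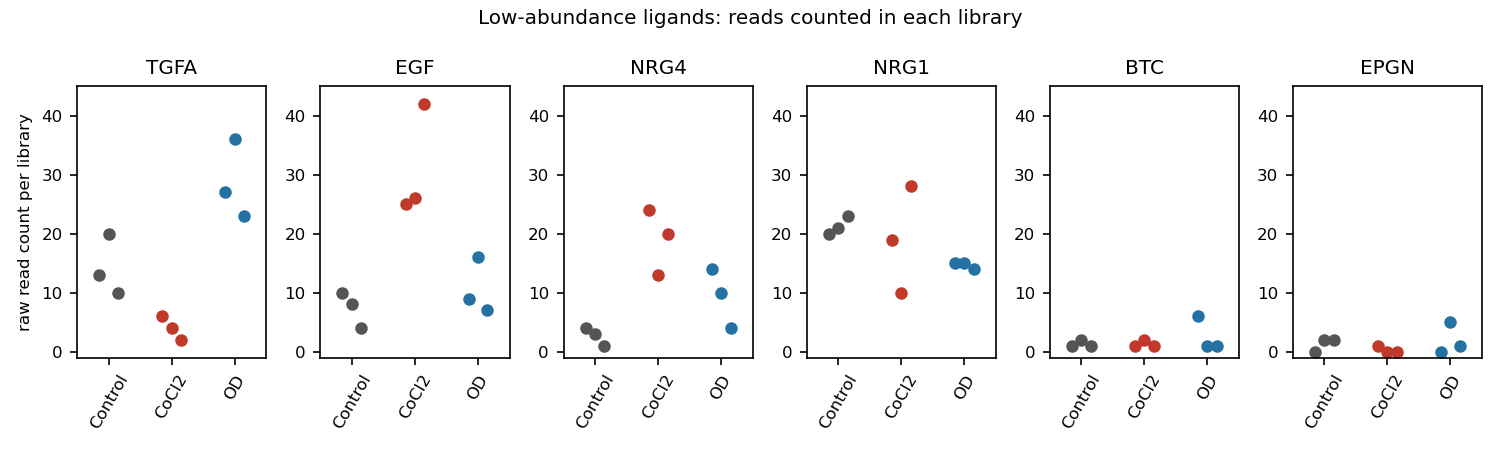
Raw number of reads per library (vertical axis) for 6 scarce ligands, with 1 point per library and 3 libraries per condition. EGF and NRG4 have the most reads after CoCl2, TGFA after OD, and BTC and EPGN stay at 6 reads or fewer.

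The remaining pathway was followed through 5 lists of 72 genes in all, of which 66 were tested. With CoCl2, 19 were called higher and 6 lower, beside 19.9% and 23.4% of all genes. The 19 include EGF and NRG4, without which 17 of 64 were higher, and 1 of the 6 lower genes was over the filter's cutoff in no CoCl2 library. With the library total as the only scaling 11 were higher and 13 lower, beside 11.5% and 36.6% of all genes. With OD, 7 were called higher and 0 lower, beside 9.09% and 4.16%, and without EGF and NRG4 6 of 64 were higher. Of the 7, 2 had a condition with no library over the filter's cutoff. By the adjusted p alone 38 of the 66 genes were higher and 13 lower, beside 32.3% and 33.3% of all genes. Between the treatments 12 were higher and 9 lower after CoCl2, beside 17.5% and 23.8% of all genes. Without EGF and NRG4, 10 of 64 were higher and 9 lower. With the library total alone, 6 of the 66 genes were higher and 13 lower, beside 8.47% and 37.8% of all genes. The median log2 fold change of the 66 genes was 0.48 after CoCl2 and 0.17 after OD.

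Of the 5 tested genes of ligand shedding, ADAM17 was called higher and RHBDF2 lower after CoCl2, beside 19.9% and 23.4% of all genes. None was called after OD, beside 9.09% higher and 4.16% lower of all genes. ADAM17, the protease that cuts AREG, HBEGF and TGFA from the membrane, had 34.6 CPM in control cells, 92.0 after CoCl2 and 52.8 after OD on average. Its log2 fold change was 1.41 after CoCl2 (edgeR adjusted p = 6.89e-33) and 0.90 with the library total alone, where it was not called. RHBDF2, an inactive rhomboid protein that carries ADAM17 to the cell surface, had a log2 fold change of -1.82 (edgeR adjusted p = 7.05e-26), and its relative RHBDF1 one of 0.95. Both the protease and its carriers thus differed from control cells, in unlike directions.

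Of the 14 genes of receptor attenuation and turnover, 3 were called higher and 2 lower after CoCl2, beside 19.9% and 23.4% of all genes. After OD 0 were called by edgeR, beside 9.09% higher and 4.16% lower of all genes. By the adjusted p alone 8 of them were higher and 1 lower after OD, beside 32.3% and 33.3% of all genes. CBLB and CBL, ubiquitin ligases that mark active EGFR for degradation, had log2 fold changes of 1.70 and 1.00 after CoCl2, and USP8, a deubiquitinase of the endosome, one of 1.10. Only CBLB passed the threshold with the library total alone. CBLC, the epithelial member of the ligase family, fell by 2.93 on the log2 scale (edgeR adjusted p = 2.29e-35), from 28.3 to 3.64 CPM. RNF41, a ligase known to control ERBB3 stability, had a log2 fold change of -1.03 after CoCl2 and 0.59 after OD. LRIG1, another negative regulator of the receptors, had -0.19 and 0.010.

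Of the 27 tested adaptors and kinases of the signalling core, 5 were called higher and 2 lower after CoCl2, beside 19.9% and 23.4% of all genes, and 2 were called higher after OD, beside 9.09%. With the library total alone 2 were called higher and 6 lower after CoCl2, beside 11.5% and 36.6% of all genes. GRB2, PIK3CA and PIK3R3 were then no longer called, at 0.98, 0.64 and 0.69. The adaptors SHC1 and GRB2, which link the receptors to RAS, had log2 fold changes of 1.63 and 1.49 after CoCl2 and of 0.026 and 0.16 after OD. MAP2K1, the kinase above ERK, had 1.54 and 0.67. AKT1, the kinase downstream of PI3K, had -1.57 after CoCl2 and -0.0025 after OD. SRC, a kinase that works with EGFR, had -0.73 after CoCl2 and was called higher after OD, at 1.07 (edgeR adjusted p = 9.17e-25). PIK3CA and PIK3R3, subunits of PI3K, had 1.15 and 1.19 after CoCl2.

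Transcripts known to follow ERK activity moved in both directions. Of the 17 tested, 8 were called higher and 1 lower after CoCl2, beside 19.9% and 23.4% of all genes, and 4 were called higher after OD, beside 9.09%. After CoCl2, 6 were higher and 4 lower with the library total alone, beside 11.5% and 36.6% of all genes. FOS had the largest change of the pathway lists, from 4.59 CPM in control cells to 132 after CoCl2 (log2 fold change 4.83, edgeR adjusted p = 2.24e-52) and 13.6 after OD (1.56). FOSL1, its relative in the AP-1 factor, had 3.73 after CoCl2 and 0.11 after OD. DUSP5 and SPRY4, feedback inhibitors of the ERK pathway, were called higher with both treatments, at 2.51 and 1.82 after CoCl2 and 2.11 and 1.21 after OD. DUSP4 was called after OD, at 1.54, and had 0.68 after CoCl2, and the direct comparison gave -0.86 (edgeR adjusted p = 6.42e-19). CCND1, which encodes cyclin D1, fell by 1.74 on the log2 scale after CoCl2 and had 0.41 after OD. The receptor tyrosine kinase EPHA2, the ERK phosphatase DUSP6, the stress-response gene IER3 and the ETS factor ETV5 were also called higher after CoCl2, at 1.61, 1.57, 1.39 and 1.26. IER3 and ETV5 were not called with the library total alone, at 0.89 and 0.76.

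**Figure D5:**
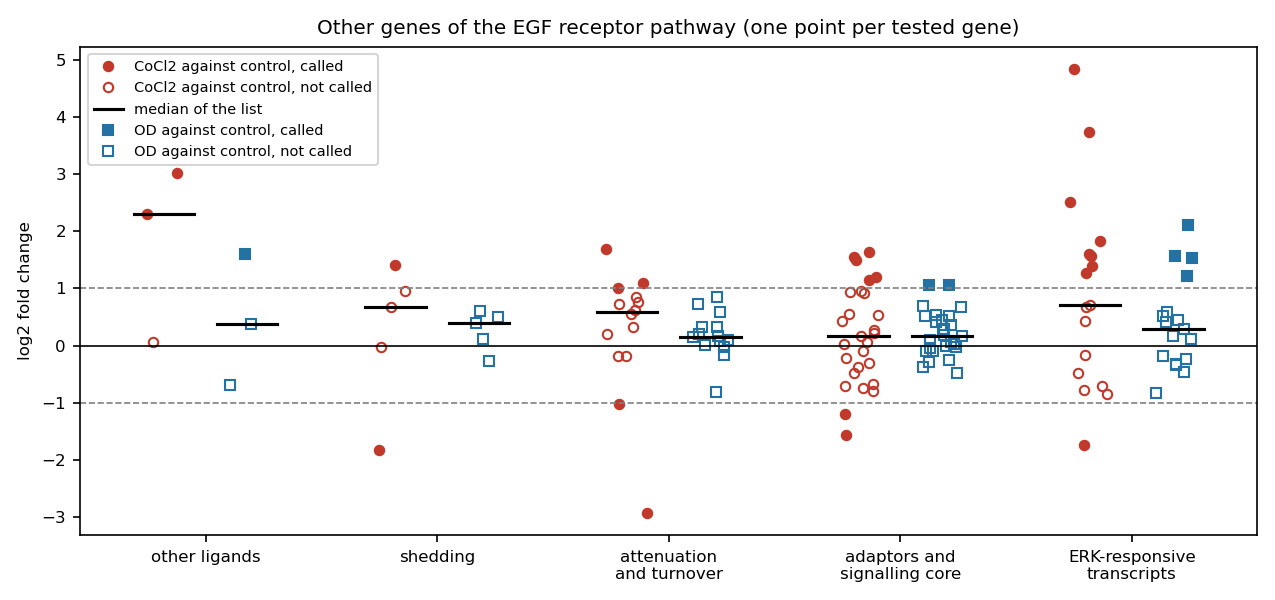
Log2 fold change (vertical axis) of each tested gene of the 5 pathway lists after CoCl2 (circles) and OD (squares), with filled symbols for called genes, black lines for list medians and dashed lines at the call threshold. The points spread further after CoCl2, with called genes on both sides of 0, while the called genes after OD all lie above 0.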

How the data were processed

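Poly(A)-selected stranded libraries of uCaco-2 cells were sequenced as single-end reads. Per the labels, the authors used FastQC 0.11.9, cutadapt 2.10 and STAR 2.7.5b on GRCh38, and they deposited raw counts per gene symbol without normalization. The counting tool, its strand setting and its treatment of reads that fit several genes are not given in the sources used here. The authors tested with DESeq2.

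From the deposited counts, TMM factors and an expression filter that left 15944 of 60591 symbols were obtained with edgeR 4.0.16 (R 4.3.3). Its robust quasi-likelihood model was fitted to all 9 libraries at once, and standard errors were derived from the F statistic. P-values were adjusted by Benjamini-Hochberg over all tested genes. The 95% intervals used the 6 residual degrees of freedom. Single ratios and shares had an exact permutation test. Levels per kb used the union of exons in GENCODE release 44, which is a later release than the authors counted on, and motifs were searched in RefSeq promoter windows. The 9 members and the pathway lists were chosen with earlier results of these data known. The text names all members, listed genes that were called (1 is not reported here), family members off the list, and the genes most like ERRFI1, the member with the largest change, and RHBDF1, LRIG1, the markers singled out and the genes alike to HBEGF were chosen after their values were seen.

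Alternatives were own fits of 6 libraries, DESeq2 1.42.0 on 9 or 6 libraries, other scalings, other filters and thresholds, thinned counts, a replicate block and leaving out each library. Replicates of a condition differed beyond sampling noise (chi-square per degree of freedom 1.82 to 3.32) and were kept separate. Same-numbered replicates did not deviate together (correlations -0.0034 to 0.035). Depth was 15998136 to 24209427 counts per library, which gave standard errors near 0.05 for ERBB2 and up to 0.45 for TGFA. Intervals and limits do not cover PCR copies. On data simulated for CoCl2 against control (14981 genes), the fit recovered 200 of 200 changed genes and also called 2 unchanged genes. Recovery of genes near the call threshold or with few reads was not tested separately.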

Additional observations from a re-analysis of the deposited data

How the results depend on the processing

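The TMM counts of called members were 5 with CoCl2, 2 with OD and 6 between the treatments, and those of pathway genes 25, 7 and 21. With the library total as the only scaling, 8 members were called with CoCl2, since AREG, EREG and ERBB3 joined the lower ones, and the direct comparison turned to -0.39 for AREG and -0.42 for EREG. With upper-quartile factors EREG turned to -0.0031 in that comparison. With the adjusted p alone, 8 members were called with CoCl2 and 8 with OD, and 60, 51 and 59 pathway genes in the 3 comparisons. Testing against a log2 fold change of 1 (glmTreat of edgeR) left 0 members with OD, with 1 at an unadjusted p under 0.05 and 2 called by DESeq2, and 4 pathway genes with OD. Over all genes, 6891 were called with CoCl2, 2113 with OD and 6580 between the treatments, against 13260, 10466 and 13311 with the adjusted p alone, and with OD 1134 with at least 10 counts in every library and 965 with glmTreat. TGFA with CoCl2 lost its call in DESeq2 on 6 libraries and in glmTreat (adjusted p = 0.0963). It was not tested with at least 10 counts in every library. Leaving out any library kept the counts of called members at 5, 2 and 6. Without control replicate 2, however, HBEGF lost its call with OD (log2 fold change 0.98) and TGFA gained one (1.09). The same-numbered replicates shared only a number, and with a replicate block 5, 2 and 6 members were called. Depth limits TGFA, BTC, EGF and NRG4, with 42 reads or fewer in every library. The causes of these shifts were not tested.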

Other observations

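EGFR-AS1, a long noncoding RNA transcribed from the strand opposite to EGFR on chromosome 7, from 55179750 to 55188977, did not share the fall of EGFR after CoCl2. It had 6.78, 6.72 and 5.67 CPM in control cells, 10.2, 10.8 and 11.4 CPM after CoCl2, and 11.04, 9.63 and 9.16 CPM after OD. Both treatments lay above the control libraries. The log2 fold change was 0.75 after CoCl2 (standard error 0.11, edgeR adjusted p = 9.19e-09) and 0.64 after OD (edgeR adjusted p = 4.37e-07), below the size for a call. Exons of the opposite strand overlap 1.17% of the exonic bases of EGFR and 6.53% of those of EGFR-AS1, and the part of such reads in these values was not tested.

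On chromosome 4, the genes that flank the ligand cluster did not follow AREG and EREG in both treatments. MTHFD2L, a mitochondrial folate enzyme before EPGN, had a log2 fold change of -0.051 after CoCl2 (edgeR adjusted p = 0.755) and -0.56 after OD (edgeR adjusted p = 0.00101). PARM1, a mucin-like protein gene after BTC, had -1.02 after CoCl2 (edgeR adjusted p = 7.12e-09) and 0.69 after OD (edgeR adjusted p = 1.62e-07). These neighbours were looked at after the values of AREG and EREG were seen.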
